A study of Mus musculus with 12 samples.

Results

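Aminoacyl-tRNA synthetases are the enzymes that join each amino acid to its transfer RNA, the step that sets the reading of the genetic code. The synthetase genes were taken from a table of read counts per gene for mouse kidney cortex as the rows whose symbol is the one-letter code of an amino acid followed by ars, with 1, 2 or no number after it, together with Farsa, Farsb and Eprs, and only where the annotation is protein-coding. This gave 37 of the 55487 gene identifiers in the table, of which 20 were put in the cytosolic class and 17, those ending in 2, in the mitochondrial class. All 37 passed the filter on low counts in every comparison, and a single gene had between 77 and 22317 counts in a library.

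The series held 12 libraries in 4 groups of 3. Ctrl were sham-operated mice labelled WT, whose ALR gene (Gfer, augmenter of liver regeneration, a sulfhydryl oxidase of the mitochondrial intermembrane space) was flanked by loxP sites without Cre (ALR flox/flox), and PT-KO were sham-operated mice labelled ALR knockdown, with the same floxed gene and the Ggt1-Cre transgene, which is active in the proximal tubule (ALR flox/flox Ggt1-Cre). Ctrl+I/R and PT-KO+I/R were mice of these genotypes after bilateral renal ischemia of 22 min and reperfusion of 24 h. All were on a mixed C57BL/6 background, and mice of 6 to 8 weeks were used for the injury model. Because Cre is limited to 1 segment of the nephron and the RNA came from whole cortex, the other cells kept Gfer, and fewer cells of a type and less RNA per cell cannot be told apart.

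A cell keeps 2 sets of these enzymes, both encoded in the nucleus. The cytosolic set feeds the ribosomes that make almost all proteins, and part of it is held in the multisynthetase complex on the scaffold proteins Aimp1, Aimp2 and Eef1e1. The mitochondrial set is imported into mitochondria and serves the ribosomes there, which make core subunits of the respiratory chain. Gars (glycine) and Kars (lysine) make both forms of their enzyme, Eprs joins the glutamate and the proline enzyme in 1 chain, Farsa and Farsb are the subunits of the phenylalanine enzyme, and mitochondria have no glutamine synthetase of their own, so that the glutamate enzyme Ears2 charges that tRNA and an amidotransferase finishes it. ATF4, the transcription factor of the integrated stress response, is known to induce many cytosolic synthetases through a C/EBP-ATF response element.

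That element was searched in the promoters because most cytosolic genes were higher after injury and most mitochondrial genes were not. RefSeq windows on GRCm38.p6, from 250 bases before to 50 bases after a gene start, were matched to 27 of the 37 genes (13 cytosolic and 14 mitochondrial). The letters TGATGNAA, on either strand, were in 3.97% of all 32851 windows, in 5 of the 13 cytosolic windows and in 0 of the 14 mitochondrial windows. Hars, Lars, Nars and Hars2 share a chromosome from which no synthetase window was taken, so their lack of a window does not mean that RefSeq has none. Cars, Rars, Vars, Wars and Pars2 were also among those without a window. Whether the promoters of these genes hold the letters was not tested, and the counts for the synthetase windows do not cover them. The NRF1 motif, GCGCA, any base and then GCGC on either strand (NRF1 is a factor of nuclear genes for mitochondrial proteins), was in 4.6% of all windows, in 3 of the cytosolic windows (Farsb, Kars and Tars) and in 2 of the mitochondrial windows (Iars2 and Mars2). These motifs cannot overlap each other. A match is a string of letters and not evidence that a factor bound there.

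The 250 bases before the start are shown for Gars, Tars and Aars, the cytosolic genes with a match before the start, and the 30 bases around the match for Iars, Yars and Aars, where it lies after the start. All read 5′ to 3′ on the strand of the gene, and capitals mark the match. Gars lies on the plus strand of chromosome 6, with its stretch at chr6:55037751-55038000 and the match 30 bases before the start. Aars lies on the plus strand of chromosome 8, with its stretch at chr8:111033592-111033841 and the match 112 bases before the start. Its further match lies at chr8:111033840-111033869. The start is that of RefSeq. In GENCODE M21 the Aars gene begins earlier, at 111033144, so that its stretch lies inside the gene as annotated there. Tars lies on the minus strand of chromosome 15, with its stretch at chr15:11399659-11399908 and the match 15 bases before the start. Iars is at chr13:49682126-49682155 and Yars at chr4:129189895-129189924, both on the plus strand.
Gars, 250 bases before the start: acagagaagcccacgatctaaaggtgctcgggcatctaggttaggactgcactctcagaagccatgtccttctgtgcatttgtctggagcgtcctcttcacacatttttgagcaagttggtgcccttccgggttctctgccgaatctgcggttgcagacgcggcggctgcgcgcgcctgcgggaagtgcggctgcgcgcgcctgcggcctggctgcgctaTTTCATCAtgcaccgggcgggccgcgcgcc
Aars, 250 bases before the start: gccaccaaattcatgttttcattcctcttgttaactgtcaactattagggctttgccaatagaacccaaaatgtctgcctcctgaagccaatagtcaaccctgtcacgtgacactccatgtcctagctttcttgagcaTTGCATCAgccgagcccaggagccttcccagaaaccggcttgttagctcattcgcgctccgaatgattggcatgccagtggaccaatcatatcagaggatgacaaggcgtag
Tars, 250 bases before the start: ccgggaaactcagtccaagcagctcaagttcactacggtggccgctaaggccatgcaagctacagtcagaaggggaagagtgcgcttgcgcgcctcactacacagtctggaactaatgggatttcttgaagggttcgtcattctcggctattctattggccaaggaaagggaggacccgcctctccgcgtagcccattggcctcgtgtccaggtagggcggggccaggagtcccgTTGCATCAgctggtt
Iars, match after the start: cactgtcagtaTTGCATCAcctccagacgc
Yars, match after the start: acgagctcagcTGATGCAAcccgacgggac
Aars, match after the start: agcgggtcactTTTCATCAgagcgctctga

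The files were checked before the genes were compared. Library totals ran from 12165089 to 23123693 counts. Gfer itself was not lower in PT-KO, at 9.96, 17.1 and 15.0 CPM (reads of a gene relative to the library size, which was scaled by the trimmed mean of M-values, TMM) against 12.7, 11.4 and 14.4 in Ctrl (log2 fold change 0.13 ± 0.19 SE, edgeR adjusted p = 0.76). The 3 Ctrl+I/R libraries read 15.3, 20 and 17.6 CPM. The 3 PT-KO+I/R libraries read 21.6, 22.8 and 21.6, higher than PT-KO (log2 fold change 0.64 ± 0.17 SE, edgeR adjusted p = 0.00666). A count over the whole gene in whole cortex can miss an exon lost from 1 cell type, so these values do not measure the deletion, and groups are named as their labels give them. Ctrl 1 and Ctrl 2 had 22402 and 19755 counts of Xist, the transcript of the inactive X chromosome, while no other library had more than 11, so that sex differs within Ctrl and in part between Ctrl and the other groups. The column of Ctrl 3 was placed by the group in its name, as the titles of the control samples carry the numbers 1, 2 and 4. All 8 proximal tubule markers of a list had counts in every group, and their summed level was 13476 to 14295 CPM in Ctrl, 12859 to 14573 in PT-KO, 3863 to 9155 in Ctrl+I/R and 2233.0 to 2819.7 in PT-KO+I/R.

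In Ctrl the cytosolic genes were the more abundant set. Per kilobase of exon, the median over the 20 cytosolic genes was 10.9 CPM (range 2.07 to 26.3) and that over the 17 mitochondrial genes was 4.28 CPM (range 1.53 to 17.2). Nars (asparagine), Dars (aspartate), Sars (serine) and Gars headed the order with 26.3, 21.2, 20.4 and 18.6 CPM per kilobase, followed by the mitochondrial arginine enzyme Rars2 with 17.2. Iars2, the mitochondrial isoleucine enzyme, had 15.7 CPM per kilobase, but 22.89% of its exonic bases are shared with Rab3gap2 on the opposite strand, and the sources used here do not say whether counting used strand. The same holds for Farsb (9.47%, Sgpp2), Cars2 (5.83%, Naxd) and the neighbours Hars and Hars2, which share 7.97% and 4.56% of their exonic bases with each other. Fars2 (8.72%, Nrn1), Vars2 (8.52%, Gm20483) and Nars2 (4.08%, C230038L03Rik) overlap genes with 21, 9 and 9 counts over the 12 libraries. Aars shares 14.29% with Exosc6 on the same strand, which is listed with 0 counts in all 12 libraries. The low end was made of Pars2 (proline) at 1.53, Mars2 (methionine) at 1.84, Ears2 at 1.96 and the cytosolic cysteine enzyme Cars at 2.07. In PT-KO+I/R the medians were 18.2 CPM per kilobase for the cytosolic and 3.09 for the mitochondrial genes, and Gars had moved to the top of the order with 51.9.

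Summed over its genes, the cytosolic set stood at 1124, 1129.5 and 1210.3 CPM in Ctrl and 1644, 1833 and 1522 in Ctrl+I/R, as against 1208, 1339 and 1223 in PT-KO and 1865, 1941 and 1861 in PT-KO+I/R. Both injured groups lay above both sham groups with either scaling. PT-KO+I/R lay above Ctrl+I/R on the TMM scale only: as CPM of total counts, without TMM, the injured groups overlapped, at 1801, 2070 and 1668 in Ctrl+I/R as against 1796, 1888 and 1735 in PT-KO+I/R. The mitochondrial set without Lars2, which is described apart, summed to 487, 483 and 533 CPM in Ctrl and 451, 453 and 500.3 in Ctrl+I/R, as against 518, 549 and 529.6 in PT-KO and 423, 429.7 and 391 in PT-KO+I/R. Here PT-KO+I/R was the lowest group, below every library of the other 3 groups, also as CPM of total counts (407, 418 and 364). These sums were not tested.

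**Figure D1:**
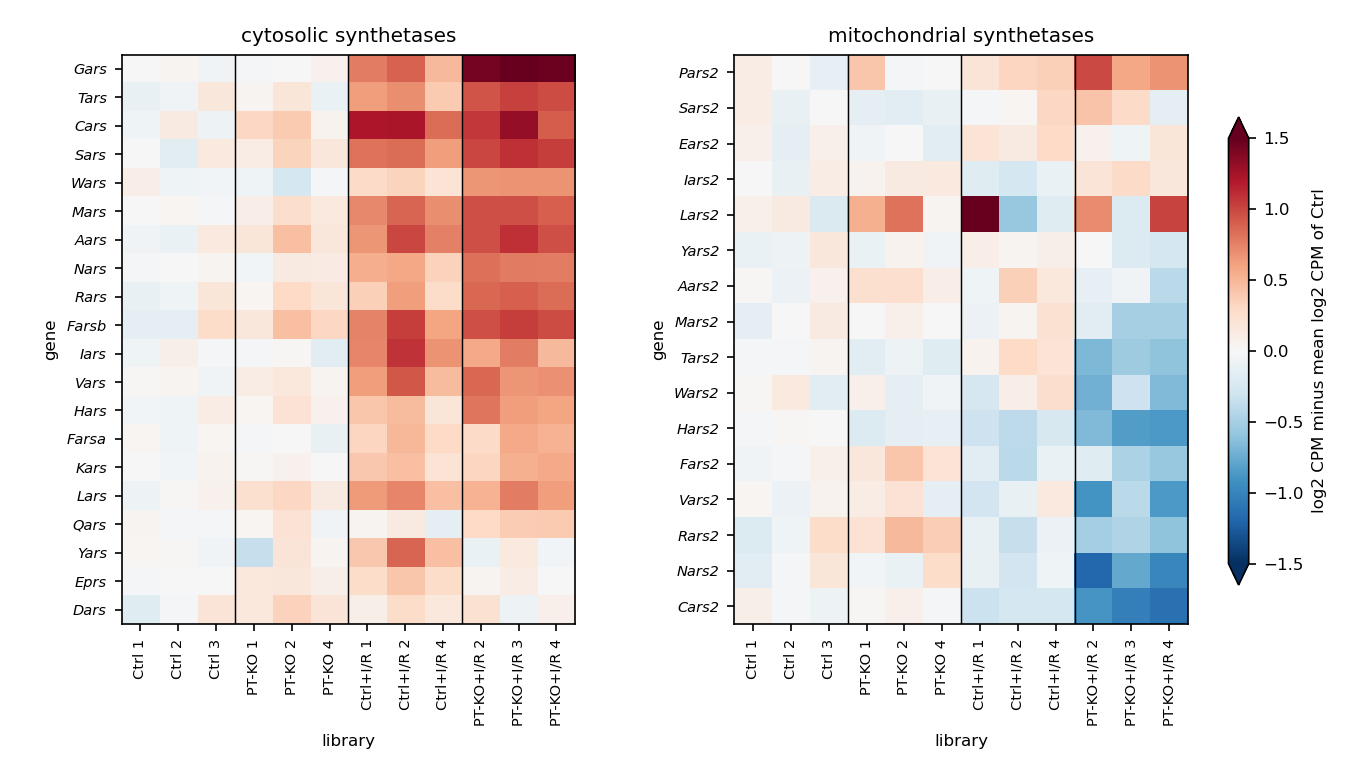
Level of synthetase genes (rows) in each library (columns), as log2 CPM minus the mean log2 CPM of the 3 Ctrl libraries, with colours ending at 1.5 in either direction; genes are ordered by their log2 fold change in PT-KO+I/R relative to PT-KO. Cytosolic genes are red in all 6 injured libraries for most rows, while most mitochondrial rows are deepest blue in the 3 PT-KO+I/R libraries, and Lars2 stands out in Ctrl+I/R 1.

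The knockout alone was compared first, PT-KO with Ctrl, to ask whether loss of ALR in the proximal tubule moved the synthetases before any injury. A gene passed the test where the edgeR quasi-likelihood F test gave a Benjamini-Hochberg adjusted p under 0.05 over all genes tested. No synthetase passed, cytosolic or mitochondrial, where 0.0327% of the 15291 genes tested passed (0.00654% higher and 0.0262% lower). DESeq2 also gave 0 of 20 and 0 of 17, where 3.25% of 14089 genes passed. At an unadjusted p under 0.05 there were 3 cytosolic and 3 mitochondrial genes. The median log2 fold change was 0.10 over the cytosolic and 0.043 over the mitochondrial genes, and -0.012 over all genes. With total counts in place of TMM the median of all genes moved by -0.12, and these medians turned to -0.024 and -0.073 with 0 genes called. Apart from Lars2, the value of largest size was that of Rars2 at 0.34 (edgeR adjusted p = 0.258), followed by Farsb at 0.29 (edgeR adjusted p = 0.297) and Aars at 0.27 (edgeR adjusted p = 0.267). Without Ctrl 3, the only Ctrl library with at most 11 Xist counts, 2032 genes (13.0% of those tested) passed, and so did 3 of 20 cytosolic genes (Farsb, Dars and Aars) and 1 of 17 mitochondrial genes (Rars2), shares near or below that background.

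In control kidneys, I/R raised the cytosolic set and left no mitochondrial gene past the threshold. In Ctrl+I/R relative to Ctrl, 14 of 20 cytosolic genes were higher and 0 lower, where 11.4% of the 15567 genes tested were higher and 7.61% lower. All 20 had a positive log2 fold change, and the median was 0.59 against -0.011 over all genes. Of the 17 mitochondrial genes, 0 passed with edgeR (background 19.0% in either direction), 2 had an unadjusted p under 0.05, and DESeq2 called 1 (Hars2, histidine, lower). Their median was 0.05.

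Cars, the cytosolic cysteine enzyme, showed the largest rise, from 13.0, 14.9 and 12.9 CPM in Ctrl to 31.4, 31.6 and 24.3 in Ctrl+I/R (log2 fold change 1.10 ± 0.14 SE, edgeR adjusted p = 0.00457). All 3 injured libraries lay above all 3 control libraries, as they did for the next 3 genes. Iars, the isoleucine enzyme, read 59.4, 66.2 and 61.6 CPM in Ctrl and 104, 133 and 99.5 in Ctrl+I/R (log2 fold change 0.84 ± 0.13 SE, edgeR adjusted p = 0.00865). Aars, the alanine enzyme, went from 81.8, 79.2 and 94.1 to 135, 169 and 144 CPM (log2 fold change 0.81 ± 0.13 SE, edgeR adjusted p = 0.00921). Farsb, the beta subunit of the phenylalanine enzyme, went from 36.8, 37.2 and 49.5 to 68.1, 83.5 and 61.2 CPM (log2 fold change 0.79 ± 0.16 SE, edgeR adjusted p = 0.0186), with Ctrl 3 as the highest control library. The other genes that passed were Mars (0.77), Sars (0.76), Gars (0.72), Vars (0.69), Lars (0.62), Yars (0.59), Tars (0.58), Nars (0.50), Farsa (0.38) and Kars (0.36). The 6 that did not were Rars (0.43), Hars (0.37), Eprs (0.33), Wars (0.28), Dars (0.17) and Qars (0.02), of which the first 3 had adjusted p-values of 0.0519, 0.0539 and 0.0524.

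This count depended on single libraries. Without Ctrl 1 it was 2 (Cars and Mars), without Ctrl 2 it was 3, without Ctrl 3 it was 12 and without Ctrl+I/R 1 it was 9, while the calls over all genes fell from 2953 to 440, 421, 2222 and 921. The median of the cytosolic genes stayed between 0.51 and 0.66 when each library was left out in turn. With sex as a covariate in a fit to all 12 libraries, where the Ctrl level without Xist rests on Ctrl 3 alone, 9 cytosolic genes were higher, among them Cars, Iars, Mars and Gars, where 1945 of all 16168 genes tested passed in either direction. With total counts the median of all genes moved by 0.12, and 18 cytosolic genes were higher.

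In knockout kidneys the 2 sets parted. In PT-KO+I/R relative to PT-KO, 17 of 20 cytosolic genes were higher and 0 lower, and 11 of 17 mitochondrial genes were lower and 1 higher, where 32.8% of the 15155 genes tested were higher and 32.6% lower (65.5% in either direction). The median log2 fold change was 0.67 over the cytosolic and -0.46 over the mitochondrial genes, and 0.011 over all genes. With total counts in place of TMM the counts were the same, and leaving out each library in turn gave 16 to 17 cytosolic and 10 to 12 mitochondrial genes. No library of this comparison had more than 11 counts of Xist.

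Gars, the glycine enzyme of both compartments, rose most, from 57.1, 58.3 and 60.4 CPM in PT-KO (58.6 ± 1.69, SD, n = 3) to 157, 168 and 161 in PT-KO+I/R (162 ± 5.76, SD, n = 3, log2 fold change 1.46 ± 0.081 SE, edgeR adjusted p = 5.38e-08). Tars, the threonine enzyme, rose from 41.0, 45.2 and 37.1 to 76.4, 81.0 and 78.5 CPM (log2 fold change 0.93 ± 0.093 SE, edgeR adjusted p = 4.83e-06). In both genes the lowest injured library was far above the highest sham library. Cars rose from 16.8, 17.8 and 14.1 to 28.3, 33.9 and 25.5 CPM (log2 fold change 0.85 ± 0.14 SE, edgeR adjusted p = 0.000224). Sars, the serine enzyme, rose from 113, 132 and 117 to 209, 224 and 214 CPM (log2 fold change 0.83 ± 0.088 SE, edgeR adjusted p = 7.83e-06). Neither of these overlapped between the groups. Behind them came Wars, Mars, Aars, Nars, Rars, Farsb and Iars, with log2 fold changes from 0.78 down to 0.67, then Vars (0.62), Hars (0.56), Farsa (0.50), Kars (0.45), Lars (0.41) and Qars (0.28). The 3 cytosolic genes that did not pass were Yars (0.023), Eprs (-0.093) and Dars (-0.16).

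Cars2, the mitochondrial cysteine enzyme, fell from 24.2, 25.3 and 23.4 CPM in PT-KO (24.3 ± 0.995, SD, n = 3) to 13.0, 11.8 and 11 in PT-KO+I/R (11.9 ± 1.02, SD, n = 3, log2 fold change -1.04 ± 0.12 SE, edgeR adjusted p = 1.39e-05). Every injured library lay below every sham library. Nars2 (asparagine) fell from 19.3, 18.6 and 24.0 to 8.79, 11.7 and 10.1 CPM (log2 fold change -1.01 ± 0.15 SE, edgeR adjusted p = 0.000129). Rars2 (arginine) fell from 54.8, 65.9 and 60.6 to 33.0, 34.4 and 31.1 CPM (log2 fold change -0.89 ± 0.10 SE, edgeR adjusted p = 9.68e-06). These did not overlap either. Among the other genes that fell were Vars2 (-0.78), Fars2 (-0.68), Hars2 (-0.63), Wars2 (-0.51), Tars2 (-0.46), Mars2 (-0.42) and Aars2 (-0.39). The 1 mitochondrial gene that rose was Pars2, the proline enzyme and the least abundant of the set, from 6.30, 4.63 and 4.72 to 9.39, 7.07 and 7.54 CPM (log2 fold change 0.60 ± 0.20 SE, edgeR adjusted p = 0.0204), which did not pass without PT-KO 2, PT-KO 4 or PT-KO+I/R 2. Sars2 (0.34), Ears2 (0.12), Iars2 (0.10), Lars2 (0.091) and Yars2 (-0.13) did not pass.

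**Figure D2:**
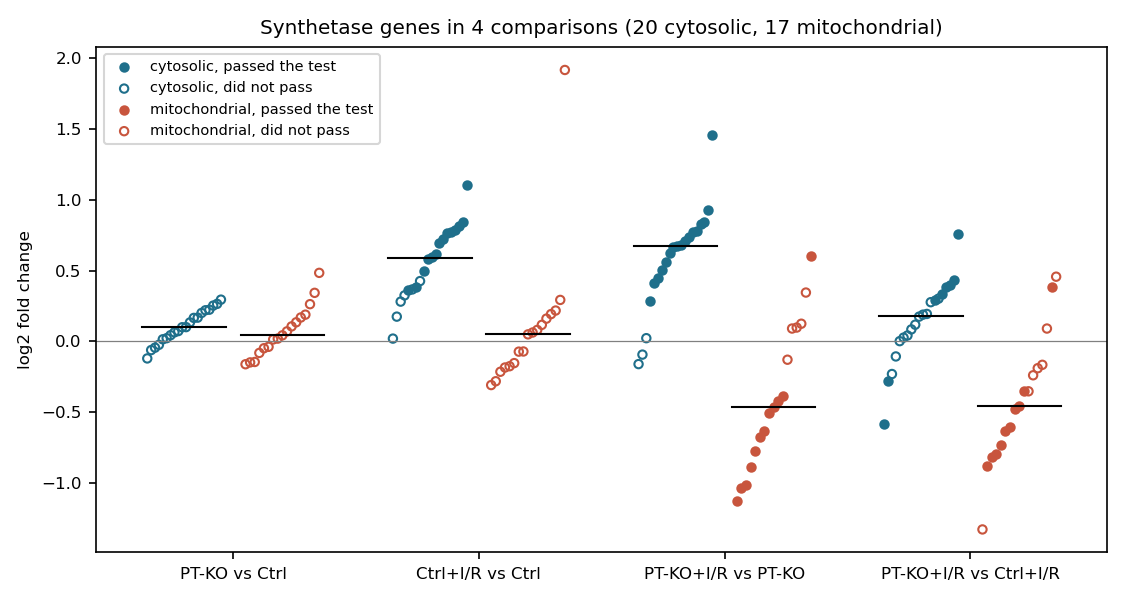
Log2 fold change of each of the 20 cytosolic and 17 mitochondrial synthetase genes in 4 comparisons; filled points passed the edgeR test, open points did not, and bars are medians. In PT-KO+I/R vs PT-KO the medians are 0.67 and -0.46; in PT-KO+I/R vs Ctrl+I/R they are 0.18 and -0.46 on the TMM scale, and with total counts they are -0.026 and -0.66. The open point at 1.92 is Lars2.

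The direct comparison of the injured groups, PT-KO+I/R with Ctrl+I/R, asks how the knockout changed the response, and it shares its libraries with the comparisons above. Among mitochondrial genes 9 of 17 were lower and 1 was higher, where 24.2% of the 15281 genes tested were lower and 22.5% higher, and the median was -0.46. Among cytosolic genes 6 of 20 were higher and 2 lower, with a median of 0.18. Together they were no larger a share than that of all genes, of which 46.7% passed in either direction. The direction of the cytosolic set depended on the scaling: with total counts in place of TMM the median of all genes moved by -0.21, the cytosolic median was -0.026 with 1 gene higher (Gars) and 3 lower (Yars, Eprs and Iars), and 12 mitochondrial genes were lower and 0 higher. Relative to the median of all genes, the cytosolic median was 0.19 and the mitochondrial median was -0.45 with either scaling. That match was fixed in advance, because a change of scaling moves all genes by nearly the same amount.

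Nars2 read 18.4, 16.3 and 19.1 CPM in Ctrl+I/R against 8.79, 11.7 and 10.1 for PT-KO+I/R (log2 fold change -0.81 ± 0.15 SE, edgeR adjusted p = 0.00361). Tars2, the threonine enzyme, read 33.8, 39.9 and 37.5 against 20.3, 22.5 and 21.4 (log2 fold change -0.80 ± 0.11 SE, edgeR adjusted p = 0.000853). In both genes the highest PT-KO+I/R library lay below the lowest Ctrl+I/R library, as it did for Cars2 at 19.1, 20 and 20 against 13.0, 11.8 and 11 (log2 fold change -0.73 ± 0.12 SE, edgeR adjusted p = 0.00222). Vars2 (-0.63), Wars2 (-0.60), Hars2 (-0.48), Mars2 (-0.46) and Rars2 (-0.35) were also lower, and Iars2 was higher (log2 fold change 0.39 ± 0.10 SE, edgeR adjusted p = 0.0143; with total counts it did not pass). Pars2 (0.46), Sars2 (0.091), Ears2 (-0.17), Fars2 (-0.19), Yars2 (-0.24), Aars2 (-0.35) and Lars2 did not pass.

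Among the cytosolic genes, Gars was higher in PT-KO+I/R, where it read 157, 168 and 161 CPM against 98.4, 107 and 81.0 in Ctrl+I/R (log2 fold change 0.76 ± 0.12 SE, edgeR adjusted p = 0.00153). Rars, the arginine enzyme, read 86.2, 88.2 and 85.1 against 60.9, 73.2 and 57.4 CPM (log2 fold change 0.43 ± 0.11 SE, edgeR adjusted p = 0.0111). Tars read 76.4, 81.0 and 78.5 against 61.4, 64.5 and 52.3 CPM (log2 fold change 0.40 ± 0.10 SE, edgeR adjusted p = 0.0134). On the TMM scale the groups did not overlap in these genes. Yars, the tyrosine enzyme, went the other way, with 28.0, 33.0 and 29.2 CPM in PT-KO+I/R against 39.7, 54.6 and 40.8 in Ctrl+I/R (log2 fold change -0.58 ± 0.14 SE, edgeR adjusted p = 0.00987). Its libraries in PT-KO+I/R lay within the range of the sham groups, which read 30.5, 30.4 and 28.9 in Ctrl and 23.6, 34.1 and 30.8 in PT-KO. Wars (0.39), Qars (0.34) and Nars (0.29) were also higher and Eprs lower (-0.28) on the TMM scale. With each library left out in turn, Wars passed in all 6 fits, Qars in 2, Nars in 1 and Eprs in 0. Cars, which rose most in controls, read 28.3, 33.9 and 25.5 CPM in PT-KO+I/R against 31.4, 31.6 and 24.3 in Ctrl+I/R, and these overlapped (edgeR adjusted p = 0.991).

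Here too the counts depended on single libraries. The cytosolic count fell from 8 to 4 without Ctrl+I/R 1 or PT-KO+I/R 3 and to 5 without Ctrl+I/R 4 or PT-KO+I/R 4, and the mitochondrial count fell from 10 to 6 without Ctrl+I/R 4 or PT-KO+I/R 4. Gars, Yars, Nars2, Tars2 and Cars2 passed in all 6 fits with a library left out.

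**Figure D3:**
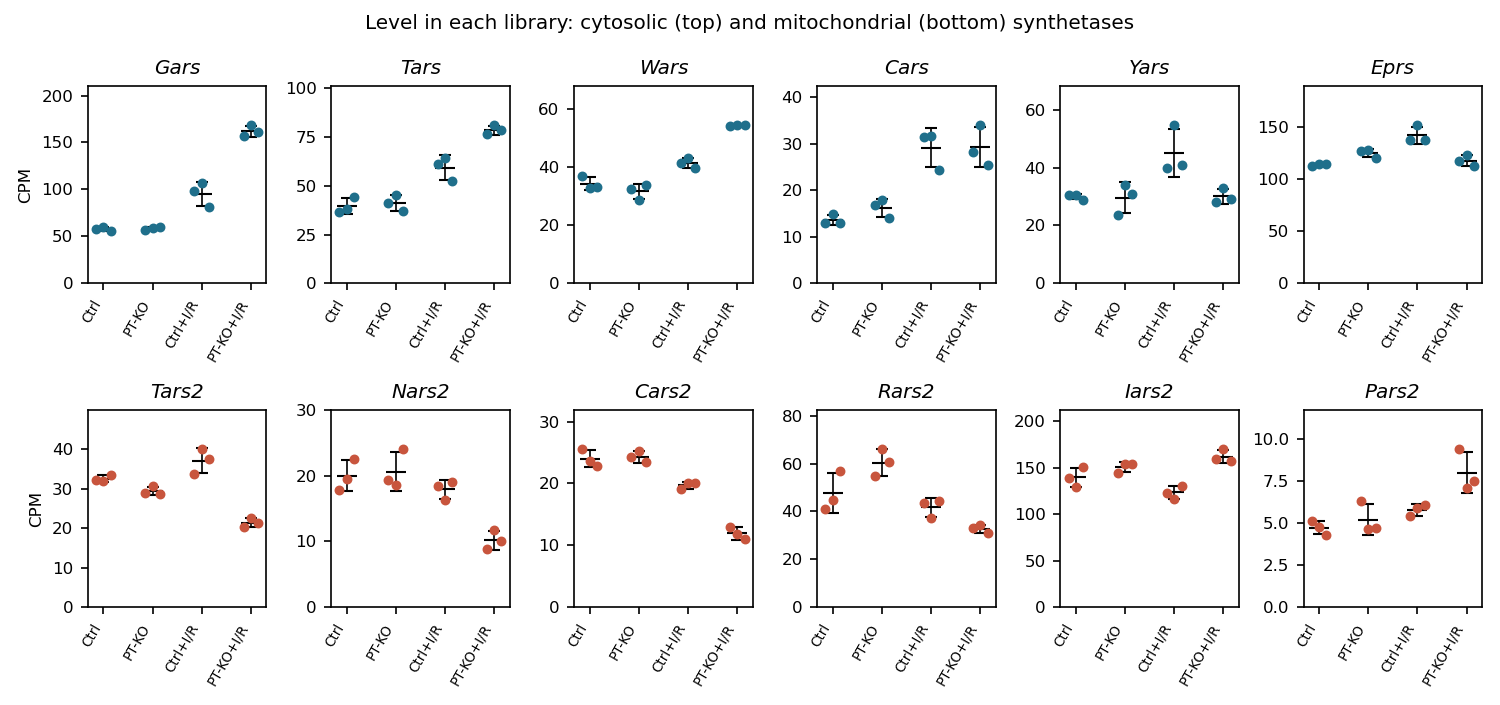
CPM of 6 cytosolic (top) and 6 mitochondrial (bottom) synthetase genes in each library, with the mean and SD of the 3 libraries of a group in black; each axis starts at 0. Gars climbs from Ctrl+I/R to PT-KO+I/R (means 95.3 and 162 CPM), Yars and Eprs are highest in Ctrl+I/R, and Tars2, Nars2 and Cars2 are lowest in PT-KO+I/R.

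The interaction of knockout and I/R, fitted to all 12 libraries, tests whether the effect of I/R differed between genotypes, and its values are the log2 fold change in knockouts minus that in controls. Among cytosolic genes 2 of 20 had a more positive effect of I/R in the knockout and 1 a more negative effect. Over the 16168 genes tested 14.2% were higher and 16.2% lower, so that neither cytosolic count was a larger share. With total counts the cytosolic split was 1 and 3. Gars, whose Ctrl libraries read 58.2, 59.5 and 55.9 CPM, had the larger rise in knockouts (difference 0.75 ± 0.14 SE, edgeR adjusted p = 0.00186), as did Wars, the tryptophan enzyme, which read 36.8, 32.7 and 33.3 CPM in Ctrl and 41.6, 43.2 and 39.6 in Ctrl+I/R, as against 32.6, 28.6 and 33.7 in PT-KO and 54.2, 54.4 and 54.4 in PT-KO+I/R (difference 0.51 ± 0.12 SE, edgeR adjusted p = 0.00826). All 3 PT-KO+I/R libraries of Wars lay above every other library. Eprs, the glutamate and proline enzyme, read 113, 114 and 115 CPM in Ctrl and 138, 152 and 138 in Ctrl+I/R, as against 127, 128 and 121 in PT-KO and 118, 123 and 113 in PT-KO+I/R (difference -0.41 ± 0.11 SE, edgeR adjusted p = 0.0176). Eprs was the 1 cytosolic gene whose effect of I/R was more negative in the knockout, but it did not pass in 1 of the 12 fits with a library left out.

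Among mitochondrial genes 7 of 17 had a more negative effect of I/R in the knockout and 0 a more positive one, with a median of -0.54 over the set and -0.017 over all genes. Nars2 (difference -0.85 ± 0.20 SE, edgeR adjusted p = 0.0082) and Cars2 (difference -0.74 ± 0.14 SE, edgeR adjusted p = 0.00221) were among them. Their Ctrl libraries read 17.9, 19.5 and 22.6 CPM for Nars2 and 25.5, 23.7 and 22.8 for Cars2, and PT-KO relative to Ctrl did not pass for either. Both passed in each of the 12 fits with a library left out. Vars2, the valine enzyme, read 23.9, 21.9 and 24.3 CPM in Ctrl and 19.2, 21.6 and 25.8 in Ctrl+I/R, as against 25.2, 27.2 and 21.3 in PT-KO and 12.5, 17.6 and 12.8 in PT-KO+I/R (difference -0.69 ± 0.22 SE, edgeR adjusted p = 0.0292), but failed the threshold in 7 of those 12 fits. Rars2 (-0.69), Tars2 (-0.64) and Aars2 (-0.54) passed as well. With sex as a covariate the interaction passed for 1 of 20 cytosolic genes (Gars) and for 3 of 17 mitochondrial genes, among them Cars2 and Tars2, where 19.7% of all genes tested passed, so that neither count exceeded the background in that fit. The median of the mitochondrial set was then -0.43.

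Kars, like Gars a gene for both compartments, behaved as a moderate member of the cytosolic set. It read 64.6, 62.8 and 67.3 CPM in Ctrl and 85.8, 88.8 and 74.8 in Ctrl+I/R, as against 65.8, 67.9 and 64.6 in PT-KO and 81.3, 94.0 and 96.2 in PT-KO+I/R. It rose after I/R in knockouts (log2 fold change 0.45 ± 0.090 SE, edgeR adjusted p = 0.001). In controls it passed as well (log2 fold change 0.36 ± 0.10 SE, edgeR adjusted p = 0.0444), but not in 5 of the 6 fits with a library left out. The injured groups differed by 0.12 on the TMM scale and by -0.09 with total counts (edgeR adjusted p = 0.403 and 0.548). Whole-gene counts do not separate the cytosolic from the mitochondrial product of Kars or Gars.

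Lars2, the mitochondrial leucine enzyme on chromosome 9 (123366927 to 123462666, mm10), could not be read as the other genes were. Its level was 108, 113 and 88.9 CPM in Ctrl and 996, 69.5 and 90.6 in Ctrl+I/R, as against 149, 181 and 106 in PT-KO and 169, 89.4 and 208 in PT-KO+I/R. The library Ctrl+I/R 1 stood far above all others. CT010467.1, a row annotated as ribosomal RNA and chosen after its values were seen, was also highest in that library, at 10668, 374 and 532 CPM in Ctrl+I/R, 772, 970.2 and 550.0 in Ctrl, 1221, 1447 and 622 in PT-KO and 1471, 684 and 2293 in PT-KO+I/R. Within each of the 4 groups the 3 libraries had the same order for Lars2 as for CT010467.1. The mitochondrial ribosomal RNA mt-Rnr1 read 1365, 527 and 539.8 CPM in Ctrl+I/R and was highest in Ctrl+I/R 1 too. Its libraries had the order of Lars2 in both I/R groups but not in the sham groups, where it read 623, 641 and 729 CPM in Ctrl and 539.8, 442 and 570.1 in PT-KO and was highest in the library where Lars2 was lowest. The other mitochondrial ribosomal RNA, mt-Rnr2, had the order of Lars2 in Ctrl+I/R (2325, 797 and 1035 CPM) but in none of the other 3 groups.

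No Lars2 comparison passed: the log2 fold change was 1.92 ± 1.15 (SE) in Ctrl+I/R relative to Ctrl, 0.091 ± 0.37 in PT-KO+I/R relative to PT-KO and -1.33 ± 1.12 in PT-KO+I/R relative to Ctrl+I/R. Without Ctrl+I/R 1 the first turned to -0.37 and the last to 0.94, and the middle one turned to -0.093 without PT-KO 4 and to -0.18 without PT-KO+I/R 4. Against all other transcripts of GENCODE M21, the Lars2 transcripts shared a stretch of 72 bases at 98.6% identity with Gm15564, the match of highest identity, whose own level in Ctrl+I/R was 13.7, 0.104 and 0.442 CPM. No stretch of 50 or more bases at 90% identity was found with CT010467.1 or mt-Rnr1. The search also had a cutoff on the BLAST E-value, the number of such matches that random sequence would give. Stretches close to 50 bases and 90% identity could fall short of it and be missed. A list of 3 ribosomal RNA genes had 2 that could be tested, of which 0 passed with edgeR in any comparison. The part of ribosomal RNA reads in the Lars2 row was not tested. The counts of mitochondrial genes that passed contain no Lars2 value, and without Lars2 the mitochondrial medians were -0.01 in Ctrl+I/R relative to Ctrl, -0.48 in PT-KO+I/R relative to PT-KO and -0.40 in PT-KO+I/R relative to Ctrl+I/R.

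**Figure D4:**
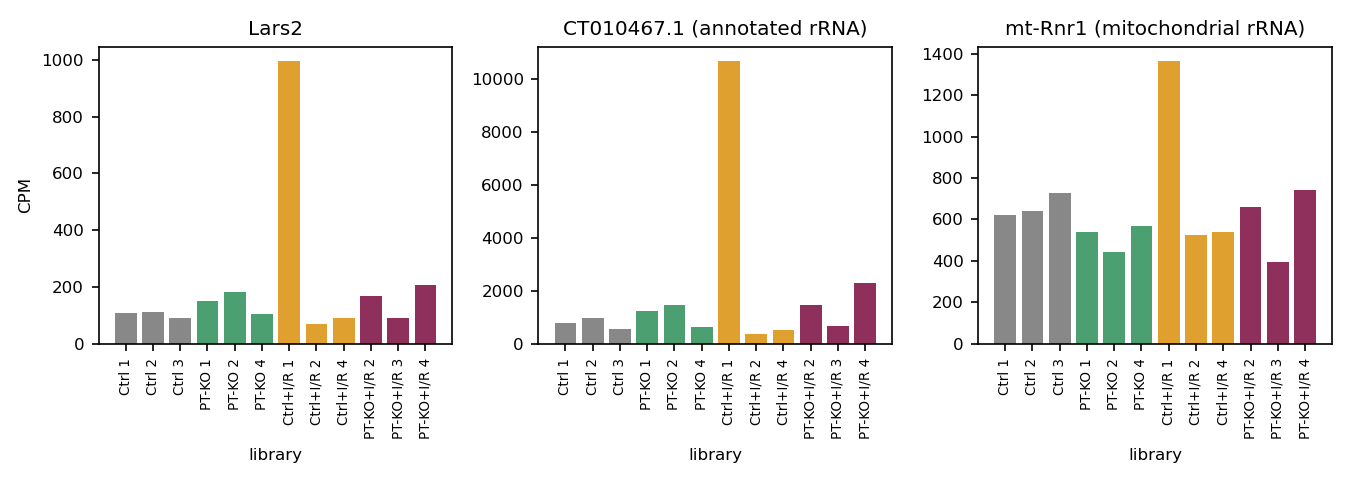
CPM of Lars2, of CT010467.1 and of mt-Rnr1 in each of the 12 libraries, coloured by group, on linear axes from 0. Ctrl+I/R 1 is the highest bar in all 3 panels (996, 10668 and 1365 CPM).

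Genes for the same amino acid were then set side by side, as the log2 ratio of the cytosolic to the mitochondrial count within a library, which does not depend on how libraries are scaled. Of 17 such pairs (Eprs enters with Ears2 and with Pars2, and Farsa and Farsb were added), 15 had a higher mean ratio in knockouts after I/R (PT-KO+I/R relative to PT-KO), with a median difference of 1.20 (range -0.71 to 1.88). In Ctrl+I/R relative to Ctrl it was 16 pairs with a median of 0.65, in PT-KO+I/R relative to Ctrl+I/R 13 pairs with a median of 0.63, and in PT-KO against Ctrl 11 pairs with a median of 0.036. The Cars to Cars2 ratio went from -0.82 ± 0.15 (SD, n = 3) in Ctrl to 0.55 ± 0.24 in Ctrl+I/R, and from -0.59 ± 0.12 in PT-KO to 1.29 ± 0.21 in PT-KO+I/R. The cysteine pair thus passed from more mitochondrial to more cytosolic counts. The Nars to Nars2 ratio went from 2.52 ± 0.14 in Ctrl to 3.17 ± 0.23 in Ctrl+I/R, and from 2.56 ± 0.19 in PT-KO to 4.29 ± 0.23 in PT-KO+I/R. For threonine it was 0.29 ± 0.11, 0.68 ± 0.19, 0.48 ± 0.097 and 1.88 ± 0.031 in the same order of groups.

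In knockouts after I/R the exceptions were the pairs whose cytosolic gene was Eprs. Its ratio to Pars2 was 4.60 ± 0.24 in PT-KO and 3.89 ± 0.24 in PT-KO+I/R, and its ratio to Ears2 was 3.71 ± 0.032 and 3.49 ± 0.19. In controls after I/R both Eprs pairs had higher means, by 0.10 and 0.027, and the exception was leucine at -0.23. Between the injured groups the exceptions were both Eprs pairs, isoleucine and tyrosine. The isoleucine and tyrosine ratios had higher means after I/R in both genotypes, but PT-KO+I/R differed from Ctrl+I/R by -0.61 and -0.34. Leucine is set by the Lars2 row described above. No test was run on these ratios, and the smallest p that an exact permutation test of 3 libraries against 3 could give is 0.1.

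**Figure D5:**
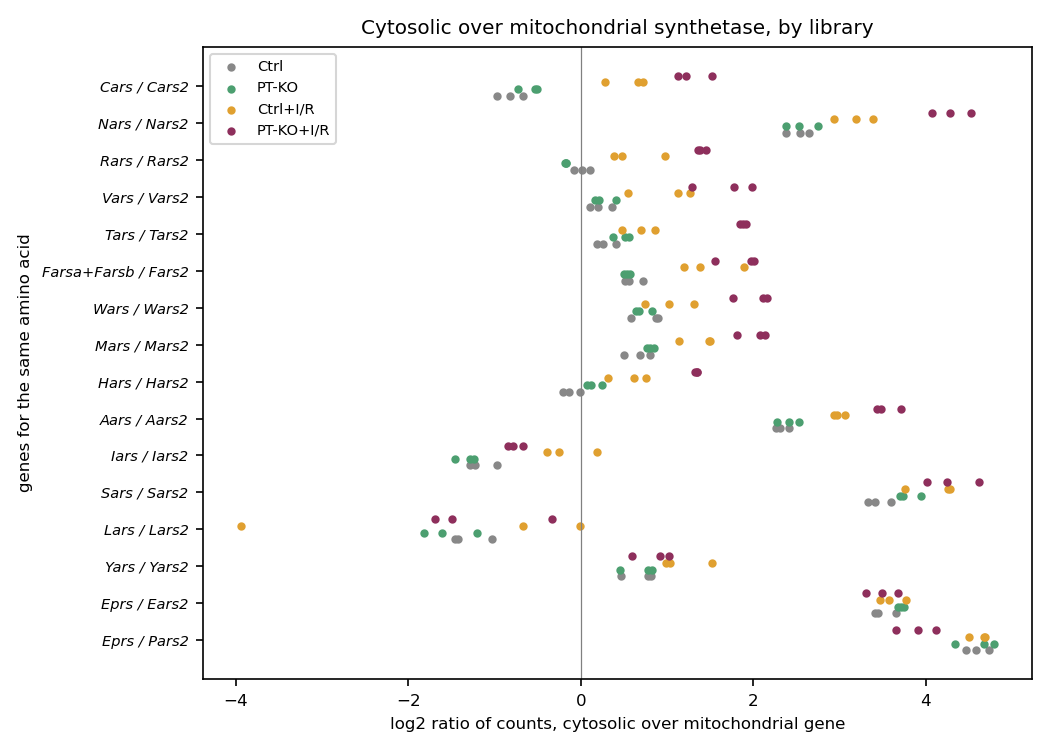
Log2 ratio of counts of the cytosolic over the mitochondrial synthetase for the same amino acid in each library, with pairs ordered by the difference between PT-KO+I/R and PT-KO. For most pairs the 3 PT-KO+I/R points lie farthest right; the Lars / Lars2 point at -3.94 is Ctrl+I/R 1.

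Divisions within the cytosolic set were described by their counts. Of the 8 genes of the multisynthetase complex, 4 were higher in Ctrl+I/R relative to Ctrl and 6 in PT-KO+I/R relative to PT-KO (medians 0.39 and 0.43), where 11.4% and 32.8% of all genes were higher. Of the 12 genes outside it, the counts were 10 and 11 (medians 0.64 and 0.72). Dars and Eprs, which did not pass in knockouts, belong to the complex and Yars does not. Of 13 genes usually listed as induced by ATF4, 11 were higher in each of these comparisons (medians 0.69 and 0.73), and of the other 7, 3 and 6 were higher (medians 0.37 and 0.50). Class 1 and class 2 enzymes, which differ in the fold of the catalytic domain, had 6 of 9 and 8 of 10 genes higher in controls and 8 of 9 and 9 of 10 in knockouts, Eprs holding a domain of each. In the mitochondrial set, 5 of 9 class 1 and 6 of 8 class 2 genes were lower in PT-KO+I/R relative to PT-KO, beside 32.6% of all genes. No test compared these divisions with each other.

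The genes whose promoter windows were shown above did not move as 1 block. Gars, Aars, Tars and Iars rose after I/R in both genotypes, with log2 fold changes of 0.72, 0.81, 0.58 and 0.84 in controls and 1.46, 0.73, 0.93 and 0.67 in knockouts. Yars holds the same letters and rose in controls (0.59) but not past the threshold in knockouts (0.023). Of the 8 cytosolic genes whose windows lack the letters, 5 rose in both genotypes (Sars, Mars, Farsa, Farsb and Kars), Qars rose in knockouts alone past the threshold (0.02 in controls and 0.28 in knockouts), and Dars (0.17 and -0.16) and Eprs (0.33 and -0.093) passed in neither.

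Partners of the synthetases were taken from lists. The complex scaffold and tRNA export list (5 genes) had all 5 higher in the knockout comparison, PT-KO+I/R relative to PT-KO, with a median of 0.74, where 32.8% of all genes were higher. Aimp2 (1.18 ± 0.14), Nxt1 (1.03 ± 0.21), a cofactor of nuclear export, and Aimp1 (0.74 ± 0.091) had the largest changes (log2 fold change ± SE). In Ctrl+I/R relative to Ctrl 2 were higher (Aimp2 0.68 and Aimp1 0.48), and in PT-KO+I/R relative to Ctrl+I/R 3 were (Aimp2, Aimp1 and Xpot, the tRNA exporter), beside 11.4% and 22.5% of all genes. The summed level of the list was 209 to 218 CPM in PT-KO+I/R and at most 175 CPM in any library of the other groups.

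The mitochondrial translation factors (10 genes tested) had 8 lower and 0 higher in PT-KO+I/R relative to PT-KO, with a median of -0.82, where 32.6% of all genes were lower. Gfm2, which splits mitochondrial ribosomes for recycling, read 75.0, 89.3 and 78.8 CPM in PT-KO and 31.9, 26.3 and 22.2 in PT-KO+I/R (log2 fold change -1.61 ± 0.13 SE, edgeR adjusted p = 9.35e-07). Tufm, the elongation factor that brings charged tRNA to the mitochondrial ribosome, went from 52.6, 62.2 and 56.3 to 23.1, 20.7 and 24.4 CPM (log2 fold change -1.33 ± 0.10 SE, edgeR adjusted p = 6.95e-07). The release factor Mtrf1l changed by -1.53 ± 0.24. Relative to Ctrl+I/R, 5 were lower and 0 higher (24.2% of all genes were lower). In Ctrl+I/R relative to Ctrl 1 (Guf1) was lower (7.61% of all genes), and the interaction was negative for 4 (16.2% of all genes).

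The list of amidotransferase, formylation and tRNA quality control genes (11 of 12 tested) was mixed, with 5 lower and 1 higher in PT-KO+I/R relative to PT-KO (median -0.29) and 4 lower and 1 higher against Ctrl+I/R. These 6 and 5 of 11 genes were no larger a share than that of all genes, of which 65.5% and 46.7% passed. Sepsecs, which makes selenocysteine on its tRNA, read 79.4, 86.4 and 86.3 CPM in Ctrl and 58.0, 52.6 and 65.0 in Ctrl+I/R, as against 84.4, 86.7 and 89.1 in PT-KO and 30.5, 27.6 and 31.1 in PT-KO+I/R. Sepsecs was the 1 gene of the list that was lower in Ctrl+I/R relative to Ctrl (log2 fold change -0.52 ± 0.11 SE, edgeR adjusted p = 0.0222). The knockouts showed a fall as well (log2 fold change -1.55 ± 0.088 SE, edgeR adjusted p = 5.96e-08). Gatb, a subunit of the amidotransferase that completes glutamine charging in mitochondria, went from 70.3, 82.6 and 77.7 CPM in PT-KO to 26.7, 32.9 and 29.0 in PT-KO+I/R (log2 fold change -1.38 ± 0.10 SE, edgeR adjusted p = 5e-07). Tarsl2, a threonine synthetase paralogue outside the rule, changed by -1.27 ± 0.24. The gene that rose was Trnt1, which adds the CCA end to tRNA (0.72 ± 0.11).

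Atf4 and its usual targets outside the synthetase family were read beside the cytosolic set. Atf4 read 60.6, 62.9 and 67.2 CPM in Ctrl and 105, 121 and 84.4 in Ctrl+I/R, as against 56.9, 65.2 and 66.4 in PT-KO and 239, 227 and 252 in PT-KO+I/R. Atf4 was lowest in the sham groups, higher in Ctrl+I/R, and highest in the PT-KO+I/R libraries, without overlap between these levels. Of 25 list genes tested in Ctrl+I/R relative to Ctrl, 12 were higher and 1 lower (median 1.22), and of 24 in PT-KO+I/R relative to PT-KO, 17 were higher and 2 lower (median 1.52). Over all genes 11.4% were higher and 7.61% lower in the former and 32.8% and 32.6% in the latter. The largest changes in the latter were Slc7a11, the cystine importer (5.09 ± 0.82), Gdf15 (4.81 ± 0.26) and Chac1, a glutathione-degrading enzyme (3.92 ± 0.29). In PT-KO+I/R relative to Ctrl+I/R the list split into 9 higher and 7 lower, led by Slc7a11 (3.17), Chac1 (2.79) and Psat1 of serine synthesis (1.38), where 22.5% of all genes were higher and 24.2% lower. Ddit3, which overlaps Mars by 1.99% of the exonic bases of Mars, did not pass in any comparison and read 5.98, 5.83 and 5.54 CPM in PT-KO+I/R.

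Wars is also known as a gene induced by interferon gamma, and a list of other interferon gamma response genes was read beside it. Of 13 tested in PT-KO+I/R relative to Ctrl+I/R, 12 were lower and 0 higher (median -2.11), where 24.2% of all genes were lower and 22.5% higher and Wars was higher on the TMM scale. Ciita (-5.80 ± 0.85), Gbp5 (-3.13 ± 0.41) and Psmb9 (-2.72 ± 0.43) had the largest changes. Relative to PT-KO, 11 were lower and 1 (Cxcl10, 1.14) was higher, as was Wars (32.6% of all genes were lower and 32.8% higher). Of 14 tested in Ctrl+I/R relative to Ctrl, 2 (Ciita and Cxcl10) were higher and 0 lower, with a median of 0.46, beside 11.4% and 7.61% of all genes, and Wars had 0.28 and did not pass.

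The cell type markers moved in the same comparisons. All 8 proximal tubule markers were lower in PT-KO+I/R relative to PT-KO (median -2.76), where 32.6% of all genes were lower. In PT-KO+I/R relative to Ctrl+I/R 5 of 8 were lower (24.2% of all genes). In Ctrl+I/R relative to Ctrl 3 of 8 were lower (7.61% of all genes). None was at 0 counts in a group. Neutrophil markers summed to 0.305 to 1.61 CPM in Ctrl, 5.94 to 26.3 in Ctrl+I/R, 0.429 to 1.58 in PT-KO and 46.7 to 71.1 in PT-KO+I/R, with Ly6g at 0 counts in Ctrl and PT-KO. Macrophage markers summed to 41.3 to 52.0 CPM in PT-KO+I/R and 61.0 to 96.0 CPM in Ctrl+I/R. Relative to Ctrl+I/R 3 of 4 were lower and Cd68 was higher, beside 24.2% and 22.5% of all genes. Relative to PT-KO 2 of 4 were lower and 1 was higher, beside 32.6% and 32.8%. T cell markers summed to 0.089 to 0.58 CPM in PT-KO+I/R against 4.17 to 9.77 in Ctrl+I/R, B cell markers to 0 to 0.322 against 0.695 to 2.14, and markers of dividing cells to 6.89 to 10.9 against 76.5 to 96.4. Fibroblast markers summed to 62.0 to 115 CPM in PT-KO+I/R against 299.0 to 379 in Ctrl+I/R, endothelial markers to 269.7 to 287 against 196 to 225.0, and the injury markers Havcr1 and Lcn2 to 3806 to 5207 against 542 to 2561. Lower in PT-KO+I/R relative to PT-KO were 2 of 2 thick ascending limb, 2 of 2 distal tubule, 2 of 3 collecting duct, 1 of 2 podocyte and 1 of 3 red cell markers, where 32.6% of all genes tested were lower. The part of these shifts in the levels of the synthetases was not tested.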

How the data were processed

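Kidney cortex RNA (TRIzol extraction, Illumina sequencing, 12 libraries) was analysed as a table of raw counts per gene deposited by the authors, in 4 groups of 3 libraries of 12165089 to 23123693 counts each. The authors had aligned the reads to mm10 with HISAT2 (version 2.0.4 in the submitters' processing notes). The counting program, its treatment of strand and its annotation are not given in the sources used here, and the identifiers were named with GENCODE M21. Xist counts above 1000 marked 2 Ctrl libraries. The 37 genes and all lists were chosen with earlier results of these data known.

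Each comparison was fitted to its own 6 libraries, and the interaction to all 12, with edgeR 4.0.16 in R 4.3.3 (filterByExpr, TMM, quasi-likelihood F test), and p-values were adjusted by the Benjamini-Hochberg method over all genes tested. CPM values use TMM library sizes, and levels per kilobase divide them by the exonic length. By rule, the synthetase genes described with a value for each library were up to 4 with the largest change that passed in each compartment and comparison. Lars2, Gars, Kars and Gfer were added by rule, and Pars2 outside it. From each list up to 3 genes with the largest change that passed in a comparison were named, and some further list genes outside this rule. A mitochondrial gene that is counted in the totals is not reported here by name. Alternatives were DESeq2 1.42.0, total counts, no filter, at least 10 counts in every library, a replicate block, fits to all 12 libraries without and with sex, and each library left out in turn. The fits were tested on simulated data, with a log2 change of 1 in 100 genes and of 2 in 100 others. At 1 the test recovered 43 in Ctrl+I/R relative to Ctrl and 68 in PT-KO+I/R relative to PT-KO. It recovered 54 in PT-KO+I/R relative to Ctrl+I/R, 75 in PT-KO relative to Ctrl and 25 in the interaction. At 2 the numbers in the same order were 89, 91, 90, 89 and 76. Lars2 transcripts were compared with GENCODE M21 transcripts by BLAST 2.17.0. The labels do not state that the samples of a group came from separate animals, so p-values measure the spread between these samples. Counting error is part of that spread and weighs most on rows with few counts. The lowest count of a synthetase gene in a library was 77.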

Additional observations from a re-analysis of the deposited data

Results flagged for a closer look

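The effect of I/R differed between genotypes for these synthetase genes by the interaction term of the edgeR fit to all 12 libraries, where 30.4% of all genes tested passed. Values are the log2 fold change in knockouts minus that in controls. Among cytosolic genes the difference was 0.75 for Gars, 0.51 for Wars and -0.41 for Eprs. Among mitochondrial genes it was -0.85 for Nars2, -0.74 for Cars2, -0.69 for Rars2, -0.64 for Tars2, -0.69 for Vars2 and -0.54 for Aars2. Of these, Vars2 did not pass in 7 and Aars2 in 10 of the 12 fits with a library left out.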

How the results depend on the processing

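In Ctrl+I/R relative to Ctrl, the 14 cytosolic genes called became 9 with sex as a covariate and 2 to 16 with each library left out, and the 0 mitochondrial genes called became 1 with DESeq2, 1 with at least 10 counts in every library, 2 in the fit to all 12 libraries and 0 to 1 with each library left out. In PT-KO+I/R relative to Ctrl+I/R, the 8 cytosolic genes became 4 with total counts, 5 with no filter and 4 to 11 with each library left out, and the 10 mitochondrial genes became 6 to 10. In PT-KO relative to Ctrl, the 0 and 0 became 0 to 3 and 0 to 1 with each library left out. In the interaction, sex as a covariate left 1 of 3 cytosolic and 3 of 7 mitochondrial genes. PT-KO+I/R relative to PT-KO stayed within 1.5 times under every alternative run. For Lars2, leaving out each library gave log2 fold changes of -0.37 to 2.42 in Ctrl+I/R relative to Ctrl, -0.18 to 0.38 in PT-KO+I/R relative to PT-KO and -1.83 to 0.94 in PT-KO+I/R relative to Ctrl+I/R, and Kars turned to -0.09 in the latter with total counts. Of 494 values of single genes under an alternative, 445 kept their direction and their side of the threshold, 41 lost and 2 gained the call, and 6 (Lars2 and Kars) reversed. The causes were not tested.

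The labels number the libraries, but among 12 same-numbered pairs 1 had deviations correlated above 0.1 (median -0.026), so the numbers were not taken to pair them. With the replicate number as a block, 0 cytosolic and 3 mitochondrial genes passed in PT-KO+I/R relative to Ctrl+I/R (1530 of 15281 genes in all, and Lars2 read 1.24), and in PT-KO relative to Ctrl 2 mitochondrial genes did, where 8.46% of all genes tested passed.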
